A study of Mus musculus with 10 samples.

Results

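The genes described here mark the mural cells of blood vessels, the smooth muscle cells and pericytes that wrap around the endothelium. They were 10 named mouse genes of 22911 that the array's probes could be tied to, and their probes were found through the RefSeq accession printed beside each probe. Acta2, Myh11, Tagln, Cnn1, Lmod1 and Myl9 encode parts of the contractile apparatus of smooth muscle. Rgs5, Notch3, Abcc9 and Pdgfrb encode a regulator of G protein signalling, a receptor, a channel subunit and a growth factor receptor that are used as markers of pericytes. The 10 genes had 15 probes, of which 14 were tested, so 9 genes entered the tests and Lmod1 did not.

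RNA came from hearts of C57BL/6N mice cut into 3 pieces: right ventricle (RV), left ventricle (LV) and the septum between the ventricles (Septum). There were 4 arrays of RV, 3 of LV and 3 of Septum, all of 1 colour, with no treatment or genetic change named for any of them, and neither age nor sex was given in the labels. Each array read the total RNA of a whole piece of wall, so vessels, muscle, epicardium and any attached fat or valve tissue were measured together. RV1, RV2, LV1, LV2, Septum1 and Septum2 lay on slide 1, and RV3, RV4, LV3 and Septum3 lay on slide 2. Between 53.7% and 64.0% of an array's spots stood well above background, no spot was saturated, and 43.8% of the 30234 probes tested differed between the slides (19.6% were higher on slide 2). The cardiomyocyte markers were high everywhere: the log2 of the summed signal of 9 genes lay between 11.80 and 11.91 in RV, 11.84 and 12.04 in LV and 11.73 and 12.003 in Septum.

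Smooth muscle contracts when calcium and calmodulin switch on a kinase that phosphorylates the regulatory light chain, which lets smooth muscle myosin pull on actin. Many genes of this apparatus are switched on by serum response factor (SRF) and its partner myocardin, which act through a short DNA element named the CArG box. In the heart these cells surround the coronary arteries and arterioles, and smooth muscle also fills the roots of the great arteries. Pericytes sit on capillaries, are recruited by platelet-derived growth factor B from the endothelium and carry its receptor Pdgfrb.

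The promoter windows of 4 contractile members are shown so that those that hold a CArG box or a near match can be set beside Cnn1, which holds neither. Each window is the 250 bases before the gene's start in RefSeq on GRCm38.p6, read 5′ to 3′ in the direction of the gene, and capitals mark a CArG box or a match to it with 1 mismatch. The motif is a pair of C, 6 bases that are A or T, and a pair of G, and it reads the same way on both strands. Windows were found for 7 of the 10 genes, among them Acta2 at chr19:34255374-34255623 (minus strand), Myl9 at chr2:156775214-156775463 (plus strand), Lmod1 at chr1:135324563-135324812 (plus strand) and Cnn1 at chr9:22099003-22099252 (plus strand).
Acta2: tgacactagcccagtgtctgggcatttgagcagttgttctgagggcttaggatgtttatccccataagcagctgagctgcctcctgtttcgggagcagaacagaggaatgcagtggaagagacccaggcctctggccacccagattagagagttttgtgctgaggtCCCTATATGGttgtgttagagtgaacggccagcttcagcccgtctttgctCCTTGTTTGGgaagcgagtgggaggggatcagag
Myl9: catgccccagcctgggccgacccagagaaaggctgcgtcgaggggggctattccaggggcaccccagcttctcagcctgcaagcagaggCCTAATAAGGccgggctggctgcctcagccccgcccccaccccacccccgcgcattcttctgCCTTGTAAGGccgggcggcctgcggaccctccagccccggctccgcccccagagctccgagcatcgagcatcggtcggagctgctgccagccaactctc
Lmod1: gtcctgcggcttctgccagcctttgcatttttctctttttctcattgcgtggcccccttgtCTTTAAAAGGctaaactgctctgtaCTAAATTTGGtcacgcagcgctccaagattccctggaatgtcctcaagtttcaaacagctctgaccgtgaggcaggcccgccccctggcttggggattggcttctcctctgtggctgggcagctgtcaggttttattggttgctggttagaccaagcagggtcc
Cnn1: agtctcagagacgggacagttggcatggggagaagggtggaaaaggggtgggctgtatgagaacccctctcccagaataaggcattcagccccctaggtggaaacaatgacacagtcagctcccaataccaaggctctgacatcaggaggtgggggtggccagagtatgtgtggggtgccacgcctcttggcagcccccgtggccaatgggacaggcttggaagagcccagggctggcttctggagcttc

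An exact CArG box stood in the Myl9 window alone among the 7, against 1.47% of all 32851 windows. With 1 mismatch allowed, Acta2, Myl9 and Lmod1 held 2 matches each, against 18.6% of windows with at least 1. These letters were not in the window of Cnn1 or in those of Rgs5, Notch3 and Abcc9. A match is a description of the sequence, and binding was not measured.

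Levels are given as the log2 of the signal over the array's own 75th percentile, so a level of 1 is a doubling of that percentile, and levels of different genes cannot be compared because probes differ in brightness. Where a gene had several probes the brightest is given unless another is named. A gene was called at an adjusted p below 0.05 in limma over all probes tested. The arrays' number limits the precision of each value.

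Myh11, Tagln, Cnn1 and Myl9 were higher in each RV array than in any LV array, an order that 8.1% of probes showed, by 2.33-fold to 4.94-fold between the means, and the spread among the RV arrays was wide. Rgs5, Notch3, Abcc9 and Pdgfrb differed between the regions by no more than 0.16 on the log2 scale. Acta2 gave opposite differences on its different probes. No member was called between any pair of regions by limma with 1 mean per region. That fit called 3.86% of probes between RV and LV and 2.08% between RV and Septum. With the slide as a term Myh11, Tagln, Cnn1 and Myl9 were called higher in RV than in LV, as 7.24% of probes were. In the same fit Rgs5 was called lower in RV, as 10.4% of probes were, and that call depended on the scaling. All these calls of members were lost when dim probes were kept in. In whole tissue, fewer cells of a type and less RNA per cell cannot be told apart.

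Myh11, the heavy chain of smooth muscle myosin and the most specific marker of differentiated smooth muscle among the members, lay at 0.81, 1.13, 2.52 and 2.07 in RV1 to RV4. Its levels were 0.32, 0.09 and 0.37 in LV1 to LV3 and 0.47, -0.20 and 0.99 in Septum1 to Septum3. The RV and LV arrays did not overlap, whereas Septum3 lay above RV1. RV had a mean of 1.64 ± 0.80 (SD, n = 4), LV of 0.26 ± 0.15 (SD, n = 3) and Septum of 0.42 ± 0.60 (SD, n = 3). RV exceeded LV by 1.38 (SE 0.41, limma adjusted p = 0.099) and Septum by 1.22 (SE 0.41, adjusted p = 0.211). A slide term gave differences of 1.23 (adjusted p = 0.016) and 1.07 (adjusted p = 0.041), and both passed the threshold. The call against Septum held in 4 of the 10 fits that left out an array and was lost without RV2, LV2, Septum2, RV3, RV4 or Septum3, and a replicate block did not make it (adjusted p = 0.095). The other 2 probes of Myh11 gave 1.33 and 1.18 for RV over LV, and with the slide as a term the first of them was called (adjusted p = 0.025) and the second was not (adjusted p = 0.065).

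Tagln encodes transgelin (SM22), an actin-binding protein of smooth muscle. Its levels were 4.96, 5.24, 6.54 and 6.04 in RV1 to RV4, 4.31, 4.06 and 4.08 in LV1 to LV3, and 4.84, 3.82 and 4.997 in Septum1 to Septum3. All RV arrays lay above the LV arrays, and Septum3 lay between RV1 and RV2. The difference of RV from LV was 1.55 (SE 0.39, limma adjusted p = 0.062), and with the slide as a term it was 1.43 (adjusted p = 0.018). Against Septum it was 1.14 (adjusted p = 0.219) and with the slide 1.03 (adjusted p = 0.082).

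Cnn1 encodes calponin, which binds actin and damps the myosin motor, and it had the widest range of the tested members. It was measured at 2.57, 3.02, 5.12 and 4.38 in RV1 to RV4, at 1.77, 1.35 and 1.29 in LV1 to LV3, and at 2.54, 0.95 and 2.86 in Septum1 to Septum3. The slide 2 arrays of RV stood above the rest, and Septum2 was the lowest array. RV exceeded LV by 2.30 (SE 0.63, a 4.94-fold difference, limma adjusted p = 0.079) and Septum by 1.65 (SE 0.63, adjusted p = 0.275). RV over LV came to 2.12 with the slide as a term (adjusted p = 0.025) and RV over Septum to 1.47 (adjusted p = 0.116), but under a replicate block the call of RV over LV was lost (2.10, adjusted p = 0.064). Its dimmer probe gave 2.50 for RV over LV.

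Myl9 encodes the regulatory light chain that is phosphorylated when smooth muscle contracts. In RV1 to RV4 it lay at 5.85, 5.89, 7.11 and 6.59, in LV1 to LV3 at 5.18, 5.05 and 5.18, and in Septum1 to Septum3 at 5.58, 4.87 and 5.70. Alone among these 4 genes, its RV arrays lay above all Septum arrays too, as those of 5.86% of probes did. RV exceeded LV by 1.22 (SE 0.31, limma adjusted p = 0.062) and Septum by 0.98 (SE 0.31, adjusted p = 0.181). A slide term gave 1.13 (adjusted p = 0.015) and 0.88 (adjusted p = 0.053).

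Lmod1 encodes leiomodin, which seeds actin filaments in smooth muscle. It was well above background on 3 arrays, RV3 at -2.28, RV4 at -2.77 and Septum3 at -1.16, all on slide 2. On the other 7 arrays, the 3 LV arrays included, it was not well above background, so it was not tested and no fold is given.

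**Figure D1:**
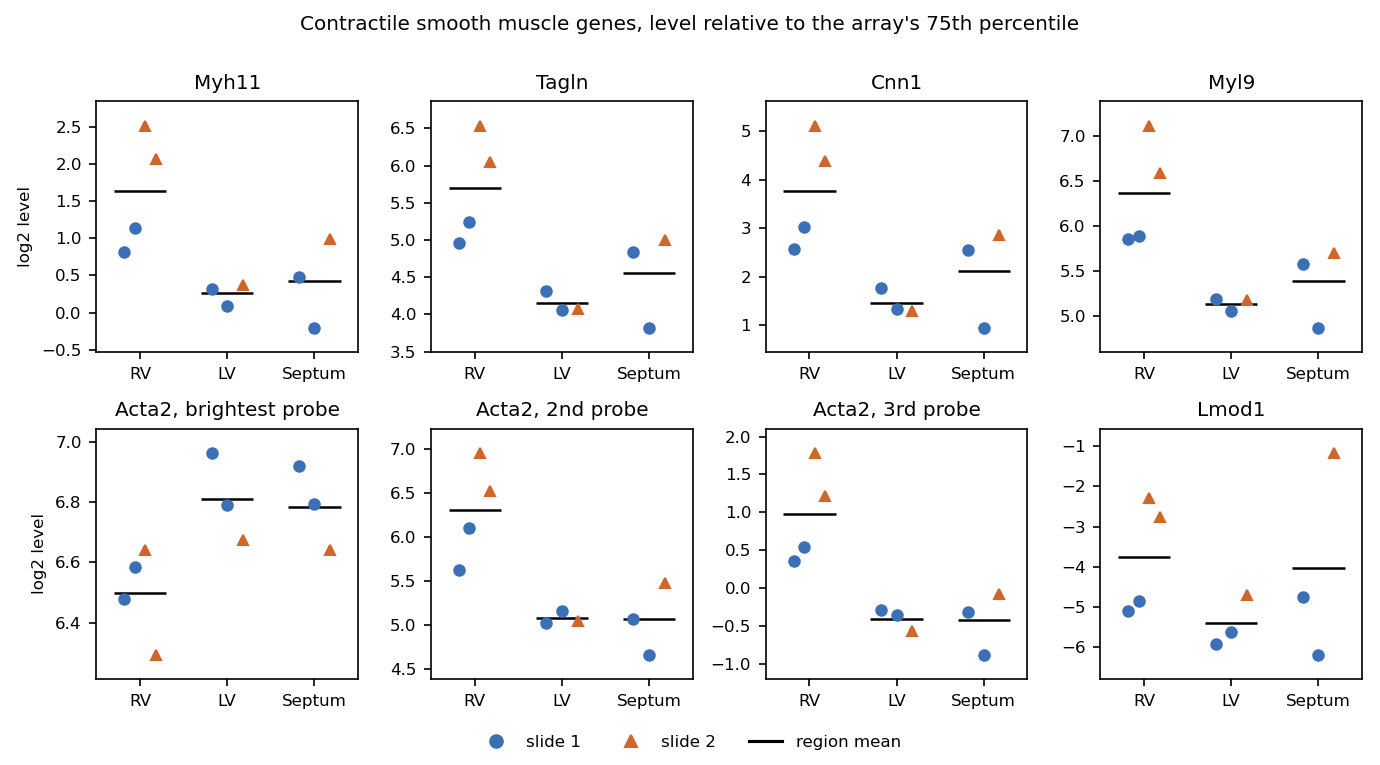
Levels of the contractile members in each array, as log2 signal relative to the array's 75th percentile, by region, with circles for slide 1, triangles for slide 2 and a line at the region's mean. RV3 and RV4 are the 2 highest arrays for Myh11, Tagln, Cnn1, Myl9 and the 2nd and 3rd probe of Acta2, and the brightest Acta2 probe runs the other way.

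Acta2 encodes smooth muscle α-actin, which is also made by myofibroblasts, and its 3 probes for the same accession disagreed. The brightest lay at 6.48, 6.58, 6.64 and 6.29 in RV1 to RV4, 6.96, 6.79 and 6.68 in LV1 to LV3, and 6.92, 6.79 and 6.64 in Septum1 to Septum3. On it, every RV array was below every LV array, as for 11.1% of probes, and the difference of RV from LV was -0.31 (SE 0.11, limma adjusted p = 0.164). Its second brightest probe lay at 5.62, 6.10, 6.95 and 6.52 in RV1 to RV4, 5.02, 5.16 and 5.04 in LV1 to LV3, and 5.07, 4.66 and 5.48 in Septum1 to Septum3. There each RV array was above all LV arrays, as for 8.1% of probes, and above all Septum arrays, as for 5.86%. The means differed by 1.22 between RV and LV (SE 0.29, limma adjusted p = 0.052) and 1.23 between RV and Septum (adjusted p = 0.074). The third probe, the dimmest, differed by 1.38 (SE 0.33, adjusted p = 0.0501) and 1.40 (adjusted p = 0.069) in the same comparisons. The second and the third probe, with the slide as a term, were called higher in RV than in LV (adjusted p = 0.012 and 0.016) and than in Septum (0.017 and 0.023), and the brightest was called in neither (0.070 and 0.127).

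Over the 10 arrays the brightest Acta2 probe correlated with the other 2 at Pearson r of -0.63 and -0.67, while those 2 correlated with each other at 0.99. The 6 actin genes of the mouse encode proteins of nearly the same sequence. Across these arrays the brightest Acta2 probe had r = 0.92 with Actg2, the actin of gut smooth muscle, 0.88 with the cytoplasmic Actg1, 0.68 with Acta1 of skeletal muscle, 0.59 with Actc1 of heart muscle and -0.70 with the cytoplasmic Actb. The second probe had r of -0.83, -0.43, -0.38, -0.60 and 0.92 with the same genes. All probes of an array share its RNA and hybridisation, these correlations are descriptions, and whether the brightest probe reads other actins was not tested. For Acta2 the direction of the regional difference therefore depends on the probe.

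By the brightest probe of each gene, 0 of the 9 members were called between RV and LV, where limma called 3.86% of all probes, and the unadjusted p was below 0.05 for 5 members and for 5992 of the 30234 probes. Between RV and Septum 0 of 9 were called against 2.08% of probes (unadjusted p below 0.05 for 5 of 9 and for 4249 probes), and between Septum and LV 0 of 9 against 0% (unadjusted, 0 of 9 and 862 probes). The F test across the 3 regions called 0 of 9 against 2.78%, and the methods' one-way analysis of variance (Tukey) called 0 as well. With the slide as a term, 5 of 9 were called between RV and LV against 17.6% of probes, 1 (Myh11, higher in RV) between RV and Septum against 8.74% in either direction and 4.03% higher, 0 between Septum and LV against 0.0463%, and 3 across the regions against 12.7%. Those 5 were Myh11, Tagln, Cnn1 and Myl9, higher in RV as 7.24% of probes were, and Rgs5, lower in RV as 10.4% were. All 5 calls, and that of Myh11 against Septum, were lost with the slide as a term and no filter on dim probes, where 56605 probes were tested and 2.18% called between RV and LV (adjusted p of 0.071 to 0.150 for the 5). With the replicate number as a block, 4 were called between RV and LV against 14.9% of probes. That block treats pieces of the same number as paired, which the labels do not state. The 4 were Myh11 (1.23, adjusted p = 0.048), Tagln (1.43, adjusted p = 0.049), Myl9 (1.15, adjusted p = 0.038) and Rgs5 (-0.23, adjusted p = 0.040). The median difference of RV from LV was 1.38 over the 5 contractile members tested, -0.05 over the other 4 and 0.05 over all 9, against -0.04 over all probes. A slide term turned the median over all 9 to -0.06, against -0.03 over all probes. For RV minus Septum the median over all 9 was 0.06, and -0.06 with a slide term, against -0.03 over all probes in both fits.

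Within slide 1 the difference of RV from LV was 0.77 for Myh11, 0.92 for Tagln, 1.24 for Cnn1 and 0.75 for Myl9, and within slide 2 it was 1.93, 2.21, 3.46 and 1.67. On both slides all RV arrays lay above all LV arrays for these 4 genes, an order found for 15.7% of probes, and above all Septum arrays, found for 13.1%. The larger differences stood on slide 2, which held 1 LV array, and the change in the regional difference from slide 1 to slide 2 was called for none of the members (lowest adjusted p = 0.498 between RV and LV, where 0.0728% of probes were called). RV3 was the highest array and Septum2 the lowest for all 4 genes. Myh11 and Myl9 were also higher on slide 2 than on slide 1 once region was in the model, by 0.86 (adjusted p = 0.015) and 0.57 (adjusted p = 0.046), and for Tagln and Cnn1 the values were 0.67 (adjusted p = 0.072) and 1.08 (adjusted p = 0.075). When the slide was a term and an array was left out, the calls of Myh11, Tagln and Myl9 between RV and LV held in 9 of 10 fits and were lost without LV3, at adjusted p of 0.084, 0.101 and 0.087. Cnn1 held in 6 of 10 and was lost without RV2, LV2, RV4 or LV3.

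**Figure D2:**
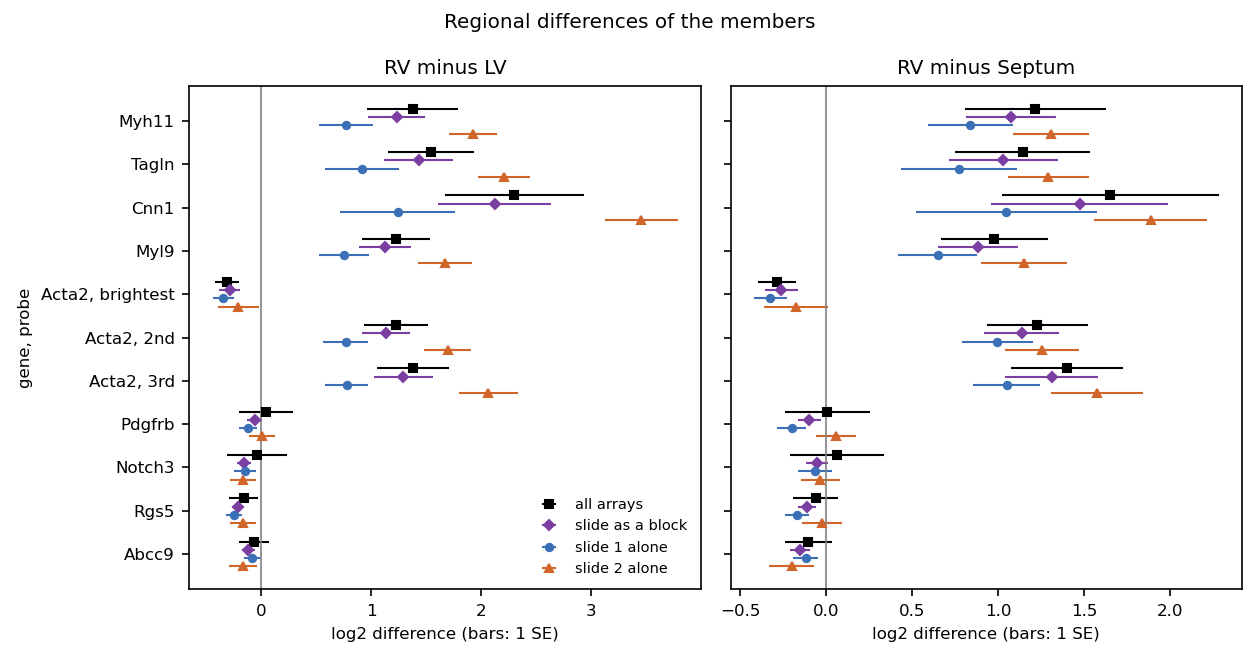
Log2 difference of RV from LV (left) and from Septum (right) for each tested member, with bars of 1 SE, from all 10 arrays, with the slide as a term, and within each slide. Myh11, Tagln, Cnn1, Myl9 and the 2nd and 3rd Acta2 probes lie above 0 in every fit, and Pdgfrb, Notch3, Rgs5 and Abcc9 lie near 0.

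Pdgfrb, the receptor through which endothelial platelet-derived growth factor B holds pericytes, lay at 1.75, 1.79, 2.53 and 2.48 in RV1 to RV4. It was at 1.81, 1.97 and 2.50 in LV1 to LV3 and 1.96, 1.98 and 2.45 in Septum1 to Septum3. The arrays split by slide and not by region. The regions overlapped, with RV over LV at 0.05 (SE 0.25, limma adjusted p = 0.943) and at -0.06 with the slide as a term (SE 0.07, adjusted p = 0.588). Fibroblasts carry this receptor too.

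Notch3 is the Notch receptor of arterial smooth muscle and pericytes, and it was measured at 2.66, 2.72, 3.41 and 3.37 in RV1 to RV4. It lay at 2.78, 2.90 and 3.55 in LV1 to LV3 and at 2.65, 2.86 and 3.42 in Septum1 to Septum3. Again the 4 arrays of slide 2 were the highest, whatever their region. The difference of RV from LV was -0.04 (SE 0.27, limma adjusted p = 0.957), and -0.15 with the slide as a term (SE 0.06, adjusted p = 0.130).

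Rgs5, a brake on G protein signalling that is abundant in pericytes, lay at 3.54, 3.53, 3.87 and 3.94 in RV1 to RV4, 3.83, 3.74 and 4.07 in LV1 to LV3, and 3.69, 3.73 and 3.92 in Septum1 to Septum3. On each slide the RV arrays were below the LV arrays, as they also were for Notch3 and Abcc9. The share of all probes with this order was not counted. The opposite order was found for 15.7% of probes, and RV minus LV was below 0 for 17234 of the 30234 probes tested. The difference was -0.16 over all arrays (SE 0.13, limma adjusted p = 0.562) and -0.21 with the slide as a term (SE 0.05, adjusted p = 0.031), a 1.16-fold lower level in RV. That call depended on the scaling: with quantile normalisation it was -0.12 (adjusted p = 0.172), and with the percentile taken over probes well above background on all arrays it was -0.15 (adjusted p = 0.099). It held in 5 of the 10 fits that left out an array and was lost without RV1, LV1, RV2, LV2 or LV3.

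Abcc9 encodes the sulphonylurea receptor SUR2 of potassium channels that close on ATP, which serve both heart muscle and mural cells. Its levels were 3.43, 3.39, 3.60 and 3.74 in RV1 to RV4, 3.45, 3.53 and 3.83 in LV1 to LV3, and 3.57, 3.49 and 3.87 in Septum1 to Septum3. The regions overlapped. RV differed from LV by -0.07 (SE 0.14, limma adjusted p = 0.837) and, with the slide as a term, by -0.12 (SE 0.06, adjusted p = 0.190).

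These 4 genes were higher on slide 2 with region in the model, Notch3 by 0.69, Pdgfrb by 0.62, Abcc9 by 0.31 and Rgs5 by 0.30 (limma adjusted p from 0.00015 to 0.0018). For them the differences between slides were larger than any difference between regions.

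**Figure D3:**
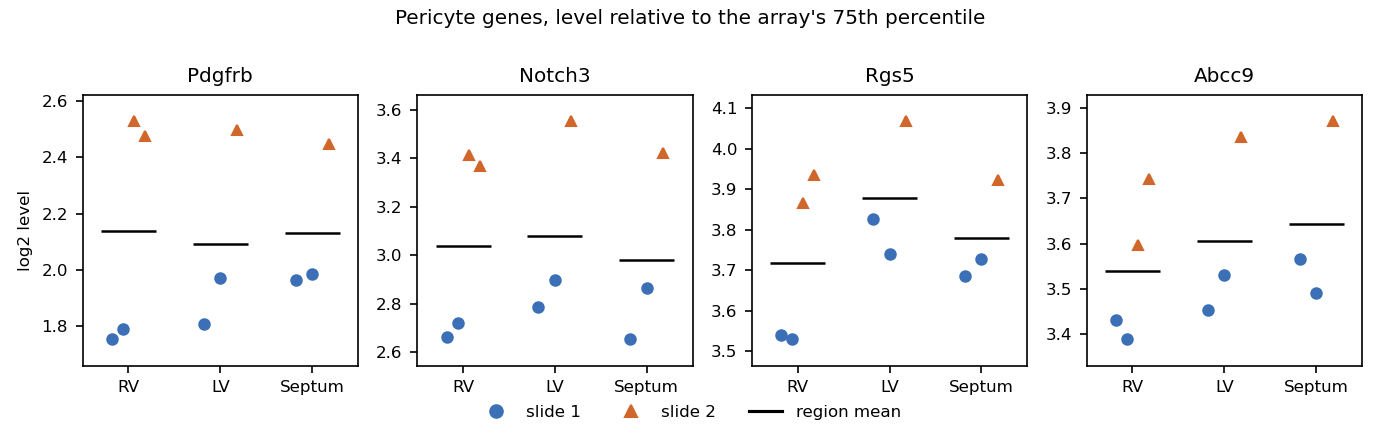
Levels of Pdgfrb, Notch3, Rgs5 and Abcc9 in each array, as log2 signal relative to the array's 75th percentile, by region, with circles for slide 1, triangles for slide 2 and a line at the region's mean. The slide 2 arrays lie above the slide 1 arrays of the same region in each panel, and the region means lie close together.

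Across the 10 arrays Myh11, Tagln, Cnn1 and Myl9 kept almost the same order, with Pearson r of 0.98 to 0.999 between pairs, both for the levels and after each slide's mean was removed. Rgs5, Notch3, Abcc9 and Pdgfrb correlated with each other at 0.85 to 0.97, and at 0.28 to 0.66 without the slide means. Between the groups r ran from 0.05 to 0.55, and from -0.80 to -0.25 without the slide means. The arrays share slides and regions, so these are descriptions of 10 arrays.

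**Figure D4:**
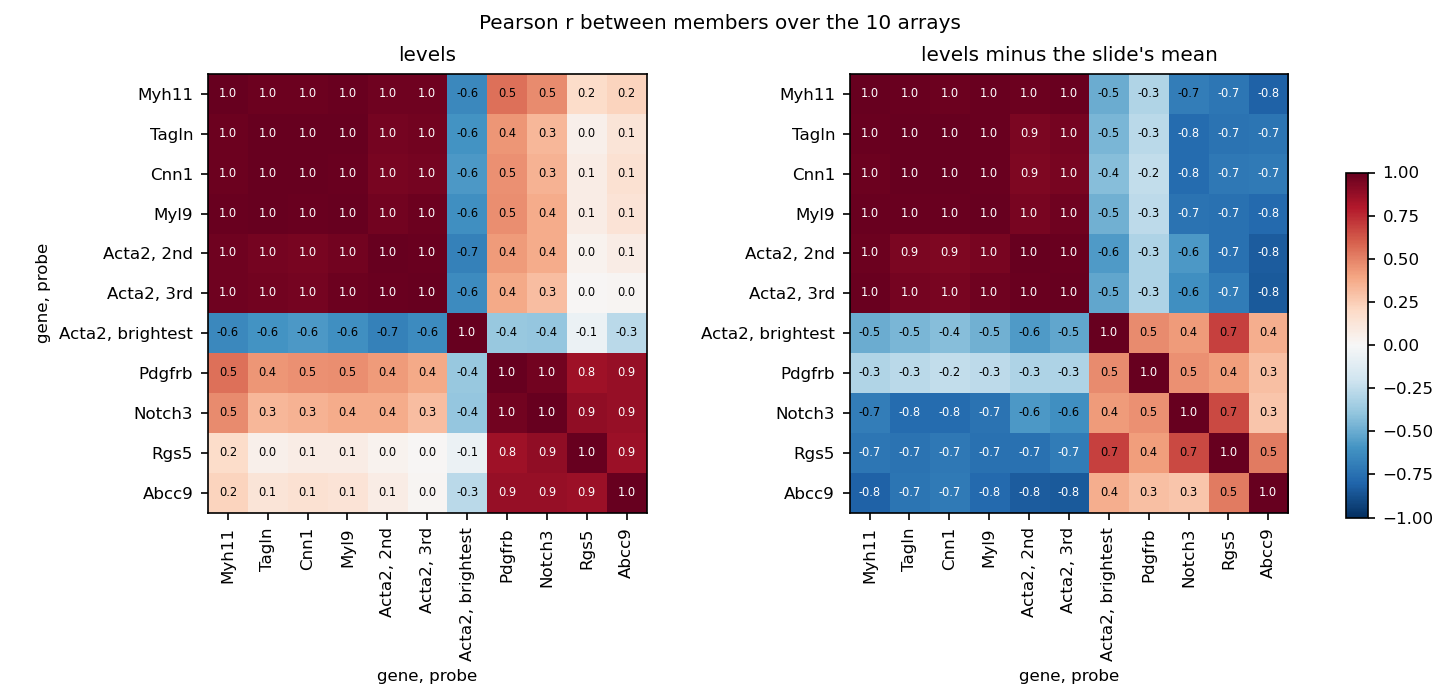
Pearson r between the tested members over the 10 arrays, for the levels (left) and after the mean of each slide was removed (right), from -1 (blue) to 1 (red). Myh11, Tagln, Cnn1, Myl9 and the 2nd and 3rd Acta2 probes form a block near 1, which holds on the right, and their r with Rgs5, Notch3, Abcc9 and Pdgfrb is below 0 there.

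Among 4916 genes outside every list, those whose levels were most like the mean score of the 5 tested contractile members over the 10 arrays were Kcnab1 (r = 0.98), E030013I19Rik (0.98), Wscd2 (0.98), Itih4 (0.98) and Col18a1 (0.97). Of these, Itih4 was called higher in RV than in LV (2.29, limma adjusted p = 0.030), and with the slide as a term all 5 were (adjusted p from 0.004 to 0.031). Those most like the mean score of Rgs5, Notch3, Abcc9 and Pdgfrb were Dnaja1, Mycn, Plekhg2, Aplnr and Rgs16, with r from 0.98 to 0.99. None of these 5 was called between RV and LV without the slide as a term, and with it Mycn (-0.62, adjusted p = 0.005), Aplnr (-0.31, adjusted p = 0.039) and Rgs16 (-0.29, adjusted p = 0.046) were called lower in RV.

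Of 15 further contractile genes of smooth muscle, 14 were tested, and 1 was called higher in RV than in LV and than in Septum. Over all probes 3.86% and 2.08% were called in these comparisons in either direction. The gene called in both was Mustn1 (0.87 over LV, adjusted p = 0.023, and 0.81 over Septum, adjusted p = 0.043). It encodes a small nuclear protein of muscle and bone that vessel smooth muscle also makes. In the fit with a slide term 7 of the 14 were called higher in RV than in LV, against 7.24% of probes. Among them were Aoc3 (0.46, adjusted p = 0.006), Itga8 (2.31, adjusted p = 0.013), Mylk (0.46, adjusted p = 0.014) and Tpm2 (1.03, adjusted p = 0.021). Itga8 is an integrin subunit of smooth muscle, Mylk the kinase of the light chain Myl9, and Tpm2 a tropomyosin. In the same fit 2 were called lower, against 10.4% of probes: Actg2 (-0.34, adjusted p = 0.014) and Des (-0.36, adjusted p = 0.033). Actg2 had r = 0.92 with the brightest Acta2 probe and -0.83 with the second. Whether the Actg2 probe reads other actins was not tested. Desmin is also the intermediate filament of heart muscle. Of 15 genes of vascular tone, 0 were called between RV and LV without the slide, against 3.86% of probes. With it 4 were called higher and 1 lower, against 7.24% and 10.4%. The largest difference among those 5 was that of Ppp1r14a, which encodes an inhibitor of myosin phosphatase (0.95, adjusted p = 0.016).

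The regulators SRF and myocardin had lower mean levels in RV than in LV, the opposite direction to Myh11, Tagln, Cnn1 and Myl9. Srf lay at 2.15, 2.18, 2.49 and 2.57 in RV1 to RV4, 2.55, 2.62 and 2.94 in LV1 to LV3 and 2.38, 2.55 and 2.89 in Septum1 to Septum3. Myocd lay at 2.11, 2.19, 2.31 and 2.40 in RV1 to RV4, 2.55, 2.70 and 2.77 in LV1 to LV3 and 2.42, 2.59 and 2.79 in Septum1 to Septum3. All RV arrays of Myocd were below all LV arrays, as for 11.1% of probes. They were also below all Septum arrays, as for 2365 of the 30234 probes tested. RV minus LV was -0.35 for Srf (limma adjusted p = 0.258) and -0.42 for Myocd (adjusted p = 0.068). With the slide as a term both were called lower in RV, as 10.4% of probes were (-0.42 and -0.46, adjusted p = 0.004 each). Heart muscle expresses both factors as well. None of the 5 genes of this list was called without the slide.

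Of 17 further pericyte genes, all tested, 1 was called higher in RV than in LV, against 3.86% of probes called in either direction. This was Anpep (0.91, adjusted p = 0.036), an aminopeptidase that fibroblasts also carry. A slide term gave 2 called higher and 2 lower, against 7.24% and 10.4% of probes. The lower 2 were Higd1b (-0.36, adjusted p = 0.041) and Vtn (-0.23, adjusted p = 0.047). The surface markers Cspg4 (NG2) and Mcam (CD146) differed between RV and LV by 0.19 (adjusted p = 0.808) and -0.10 (adjusted p = 0.639). Kcnj8, the pore that pairs with Abcc9 in mural cells, differed by -0.20 (adjusted p = 0.619) and, with the slide, by -0.27 (adjusted p = 0.051). Its counterpart in heart muscle, Kcnj11, was called lower in RV with the slide as a term (-0.46, adjusted p = 0.004), as 10.4% of probes were. It was the 1 called gene of 3 in the channel list, and none was called without the slide.

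Among ligands of the receptors, Pdgfb differed between RV and LV by -0.21 (limma adjusted p = 0.718), Pdgfd by -0.18 (adjusted p = 0.387) and Jag1, a ligand of Notch3, by 0.20 (adjusted p = 0.538). Of 5 further genes of the platelet-derived growth factor family, 1 was called higher in RV than in LV, against 3.86% of probes called in either direction. This was Pdgfra (0.40, adjusted p = 0.036), the receptor of fibroblasts. Of 13 further Notch pathway genes 12 were tested and 0 were called. With the slide as a term 2 of the 12 were called between RV and LV, against 17.6% of all probes. These were Notch2, higher (0.38, adjusted p = 0.011), and Notch4, an endothelial receptor, lower (-0.42, adjusted p = 0.035).

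Markers of other cells moved with the contractile members. The mean score of Myh11, Tagln, Cnn1 and Myl9 correlated over the 10 arrays with that of 7 elastic fibre genes at r = 0.91 and that of 9 fibroblast genes at 0.90, and with the scores of 4 valve and cartilage genes and 7 adipocyte genes at 0.77 and 0.74. After the slide means were removed these values were 0.87, 0.91, 0.70 and 0.80, and that of 9 cardiomyocyte genes was -0.93, against -0.43 for the levels. The score also correlated with 5 arterial endothelial genes at 0.77, 10 endothelial at 0.71, 4 nerve at 0.56, 8 mesothelial at 0.42 and 9 macrophage at 0.33. Without the slide means these values were 0.65, 0.56, 0.73, 0.66 and 0.70. Atrial and blood genes gave -0.29 and 0.02, and -0.14 and -0.12 without the slide means. All 9 fibroblast genes were tested and 3 were called higher in RV than in LV, against 3.86% of probes called in either direction. The same share stands beside the adipocyte, valve and cartilage, and elastic fibre counts that follow. The log2 of the summed signal of the fibroblast genes ran from 9.15 to 9.40 in RV, 8.69 to 8.83 in LV and 8.92 to 9.02 in Septum. For adipocytes 5 of 7 were called, among them Car3 (30.6-fold higher in RV than in LV) and Cidec (18.9-fold), and the median difference over the 7 was 3.43. Their summed signal ran from 5.51 to 5.82, 5.33 to 5.57 and 5.44 to 5.57, most of it from Plin4 (means of 5.23 in RV and 5.42 in LV), which was not called. For valve and cartilage genes 3 of 4 were called, with sums of 2.19 to 4.50, -0.04 to 0.97 and 2.24 to 3.91, and for elastic fibre genes 0 of 7, with sums of 4.32 to 5.10, 4.02 to 4.37 and 4.36 to 4.48. With the slide as a term 6 fibroblast, 5 adipocyte, 4 valve and cartilage and 3 elastic fibre genes were called higher in RV than in LV, against 7.24% of probes. No marker of the fibroblast, adipocyte, valve and cartilage, and elastic fibre lists was below background on all arrays. Their part in the differences of the members was not tested.

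**Figure D5:**
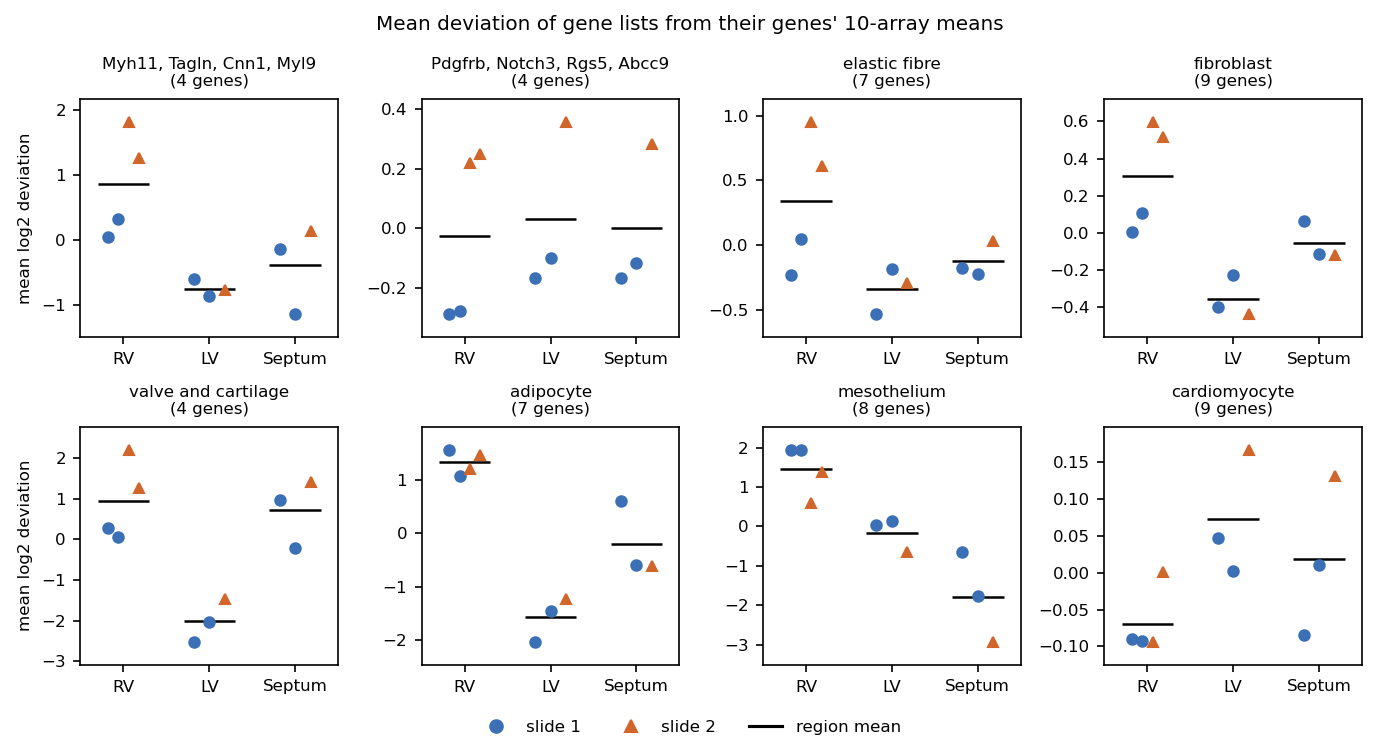
Mean log2 deviation of each list's tested genes from their 10-array means, by array and region, for Myh11, Tagln, Cnn1 and Myl9, for Pdgfrb, Notch3, Rgs5 and Abcc9, and for 6 lists of markers. The elastic fibre and fibroblast lists are highest in RV3 and RV4, as are Myh11, Tagln, Cnn1 and Myl9, whereas the score of Pdgfrb, Notch3, Rgs5 and Abcc9 separates the slides.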

How the data were processed

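RV, LV and Septum RNA was extracted with TRIzol from frozen wall, labelled with Cy3 and hybridised to Agilent mouse arrays. The intensity values were produced by the authors with Agilent Feature Extraction (version 11.5.1.1), which subtracted background, and were deposited unscaled. Per the file headers no mean signal was given, so the normexp alternative used median signals (offset 50). The authors also deposited log2 values scaled to the 75th percentile, used as an alternative. They lay within 0.05 of the values computed here, up to a constant, for 100.0% of probes.

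The log2 processed signal minus each array's 75th percentile was computed, outlier and control spots were left out, and spots of a probe were averaged. Of 56605 probes, 30234 passed the filter (well above background on all arrays of 1 region or more) and were tested. Symbols came from RefSeq (GRCm38.p6), and no coordinates other than those of the promoter windows are given. The brightest probe stood for a gene. Groups and replicate numbers came from the sample titles. limma (version 3.58.1, R 4.3.3) fitted 1 mean per region to all 10 arrays, two-sided, with Benjamini-Hochberg adjustment over all tested probes. The fit was tested on simulated data. The methods' analysis of variance with Tukey's correction was an alternative. Members of a list were named by a rule: all members, up to 5 called genes of a related list, and role partners.

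The members and lists were chosen with earlier results of these data known. Different individuals were used for each experiment, according to the design text, and whether pieces with the same number came from the same heart is not stated. Deviations from the region means correlated at 0.36 to 0.64 in all 9 pairs of the same number, against 0.09 to 0.58 in pairs of another number on the same slide and -0.56 to -0.21 across slides. The medians were 0.44 for the same number and 0.26 for another number on the same slide, but these ranges overlap. The correlations therefore cannot decide whether the numbers pair the pieces. The main fit took no pairing, and the replicate block, which assumes it, was an alternative. Where samples are not separate animals, p-values measure only the spread between these arrays. The slide terms combined with other settings, the leave-one-out fits with the slide and the second Acta2 probe were chosen after seeing the data.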

Additional observations from a re-analysis of the deposited data

How the results depend on the processing

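No member was called between Septum and LV under any setting run. Between RV and LV, where 0 of 9 were called, the count was 1 with normexp background correction (Tagln; 3.63% of probes) and 1 on slide 2 alone (Cnn1; 1.09%), 5 with the slide as a block (17.6%), 4 with the replicate block (14.9%), and 4 with a random replicate block (19.2%). Combined with the slide block it was 4 after quantile normalisation (14.8%), 7 after scaling by the median (20.4%), 4 after scaling by probes well above background on all arrays (15.4%), 0 with no filter (2.18%), and 6 with the second Acta2 probe. Between RV and Septum the count rose from 0 to 1 with the slide as a block, also with each of those 3 scalings (7.05% to 8.74% of probes), and to 2 with the random replicate block (10.5%) or with the slide and the second Acta2 probe. Across the 3 regions it rose from 0 to 3 with the slide as a block and with those 3 scalings (10.9% to 13.9%), and to 4 with the random replicate block (14.9%) or the second Acta2 probe and the slide. Without 1 array, with or without the slide, these counts ran from 0 to 6, 0 to 2 and 0 to 4. Against 1 mean per region, the replicate block changed no call between RV and Septum or Septum and LV.

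The median of RV minus LV moved to 0.63 with no filter, which adds Lmod1, and to 0.76 with the mean over probes of a gene, where that of RV minus Septum was 0.78. Without 1 array the median of RV minus Septum ran from -0.078 to 0.28. Acta2 turned positive with the mean over its probes (0.76 against LV, 0.78 against Septum) and with its second probe (1.22 and 1.23, and 1.13 and 1.14 with the slide). RV minus LV of Notch3 turned to 0.042 with quantile normalisation and 0.016 with scaling by probes well above background on all arrays, and that of Abcc9 to 0.012 with quantile normalisation. That of Pdgfrb turned to -0.058 with the slide as a block, with or without the filter, -0.12 on slide 1, -0.068 with the replicate block, -0.019 with the random block, and -0.0066 and -0.11 with the slide and quantile or median scaling. Without 1 array these 3 ran from -0.19 to 0.20, -0.14 to 0.047 and -0.10 to 0.25. The causes were not tested. The number of arrays limits each value, and Lmod1 is limited by its signal over background.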

Other observations

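Markers of other cells that the vessel wall or the dissected pieces could hold were counted in the same way, with the 75th percentile scaling and limma over all probes. Between RV and LV, 1 of 10 endothelial genes was called higher (Vwf, 1.65, adjusted p = 0.004), 1 of 5 arterial endothelial genes (Bmx, 0.75, adjusted p = 0.041), 1 of 8 tested mesothelial genes (Krt18, 1.62, adjusted p = 0.026) and 2 of 4 tested nerve genes, among them Mbp (1.29, adjusted p = 0.010), while 1 of 9 cardiomyocyte genes was lower (Tnnc1, -0.38, adjusted p = 0.028). Vwf is the clotting factor carrier of endothelium and Tnnc1 the calcium sensor of the heart's thin filament. None of 9 macrophage, 4 tested atrial and 4 tested blood genes was called in that comparison. Over all probes 3.86% were called between RV and LV without the slide, and 7.24% higher and 10.4% lower with it. With the slide as a term the counts between RV and LV were 4 higher and 3 lower of 10 endothelial genes, 2 higher of 5 arterial, 7 higher of 8 mesothelial, 2 higher of 4 nerve, 3 lower of 9 cardiomyocyte, 2 higher of 9 macrophage, 1 lower of 4 atrial and 0 of 4 blood genes. Between RV and Septum 7 of the 8 mesothelial genes were called higher, against 2.08% of probes called in either direction. With the slide all 8 were, against 4.03% of probes called higher. The log2 of the summed signal of these 8 ran from 3.31 to 4.73 in RV and from 0.87 to 2.04 in Septum.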
